A study of Homo sapiens with 2 samples.

Results

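The genes described here are the 39 protein-coding members of the human HOX clusters A to D, chosen by name alone: each gene that GENCODE release 29 types as protein coding and names HOXA, HOXB, HOXC or HOXD plus a number, out of 19951 protein-coding genes and 58735 genes in all. The rule uses names, but the clusters were taken up with their FPKM in these same 2 libraries known, so their levels and ratios are a description and support nothing further. HOXA has 11 members on chromosome 7, HOXB 10 on chromosome 17, HOXC 9 on chromosome 12 and HOXD 9 on chromosome 2.

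RNA was sequenced from BT549, an established line of triple-negative, mesenchymal breast cancer cells. The shSIK2 group carried an shRNA aimed at the salt-inducible kinase gene SIK2, and the scrambled group a control shRNA. Both groups were exposed to Wnt3a, a Wnt ligand, over 2 h, so no library without Wnt3a is compared, and each group is 1 library. The number of hairpins, and whether cells were pooled or cloned, are unknown here. The study's question was the tie between SIK2, the Wnt co-receptor LRP6 and stem-like traits of breast cancer cells.

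HOX genes encode homeodomain transcription factors that tell cells where they lie along the body axis. In each cluster all genes are read from the same strand, from paralog 13 at the 5′ end to paralog 1 at the 3′ end, and genes with the same number in different clusters are paralogs. In the embryo the 3′ genes come on early and towards the head, under retinoic acid and Wnt signals, and Polycomb and trithorax proteins then keep each gene off or on. Cell lines tend to keep a fixed pattern of active HOX genes that reflects their tissue of origin.

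Values are FPKM as deposited, reads scaled for gene length with 1 scale shared by both tables, so that library totals are not evened out. Whole reads could be recovered from them, 16347399 for the shSIK2 library and 18019225 for the scrambled library. SIK2 itself stood at 3.56 FPKM in the shSIK2 library and 7.80 FPKM in the scrambled library, 2.19-fold lower in reads (95% counting interval 1.99 to 2.42). All 9 markers chosen for BT549, such as VIM and ZEB1, were above 1 FPKM in the higher library. Among them SPARC, TGFBI and COL1A1 were higher in shSIK2 cells, with log2 ratios of 2.30, 2.05 and 1.02, and the others lay between -0.47 for AXL and 0.26 for CAV1. Of 9 luminal and epithelial markers 2 were, ERBB2 and GATA3; ESR1 had 0 reads in the shSIK2 library and 6 in the scrambled library, and KRT8, also under 1 FPKM, had 88 in the shSIK2 library and 13 in the scrambled library. The part of these marker differences in the HOX ratios was not tested. None of 8 leukocyte and 4 endothelial markers reached 1 FPKM. With 1 library per group no difference below has a replicate check or a p-value, and every interval covers counting error only. Folds and intervals use reads that are not scaled to library totals.

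BT549 cells of both groups expressed the HOXB and HOXC clusters and left HOXA and HOXD nearly silent. Summed over its members, HOXB stood at 76.97 FPKM in the shSIK2 library and 46.6 FPKM in the scrambled library. HOXC stood at 37.8 FPKM in the shSIK2 library and 38.4 FPKM in the scrambled library. For HOXA the sums were 1.06 FPKM in shSIK2 cells and 1.72 FPKM in scrambled cells, and for HOXD 0.066 FPKM in shSIK2 cells and 0.084 FPKM in scrambled cells. HOXB therefore made up 66.4% of all HOX FPKM in the shSIK2 library against 53.7% in the scrambled library, and HOXC 32.6% against 44.2%. Of the 39 members, 16 reached 1 FPKM in the higher library, where 53.5% of all protein-coding genes did; 12 had reads but stayed under it, and 11 had no read in either library. HOXB13, HOXC12 and HOXA9 reached 1 FPKM in 1 of the 2 libraries alone, so having passed that minimum, they had to differ. In these bulk libraries, a change in the share of expressing cells and a change of RNA per cell cannot be told apart.

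**Figure D1:**
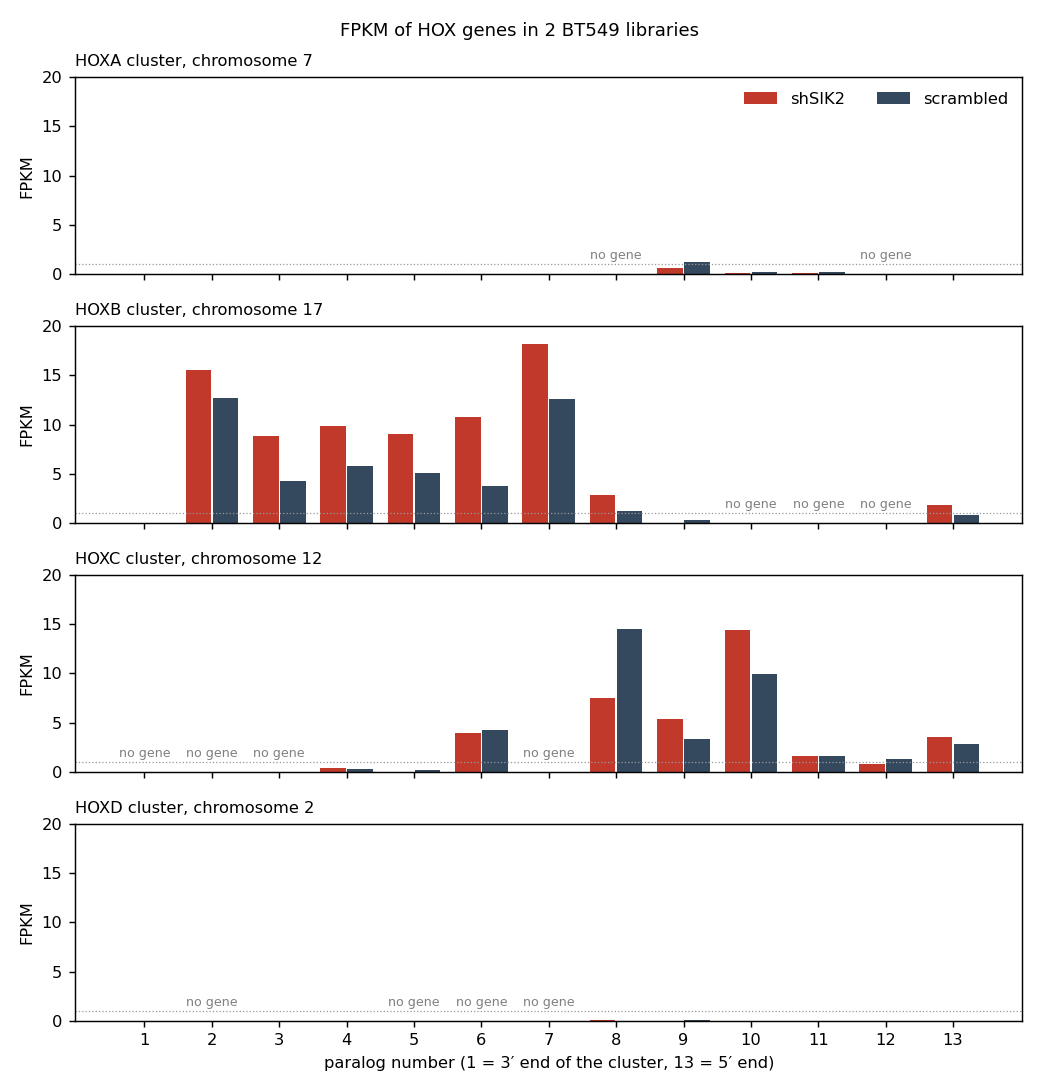
FPKM (vertical axis, linear) of the HOX genes reported here by paralog number (horizontal axis), 1 panel per cluster, with the shSIK2 library left of the scrambled library; each bar is 1 library, so there are no error bars, and the dotted line marks 1 FPKM. HOXB2 to HOXB8 and HOXC6 to HOXC13 carry nearly all of the signal, and the HOXA and HOXD panels stay at or near 0 except HOXA9.

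The active stretch lay in different parts of the 2 expressed clusters. In HOXB the genes from paralog 2 to paralog 8 were on without a gap, the end genes HOXB1 and HOXB9 were off or nearly so, and the distant HOXB13 was on at a low level. In HOXC the genes from paralog 6 to paralog 13 were on, and the 3′ genes HOXC4 and HOXC5 stayed under 1 FPKM. By paralog number, group 7 had the largest summed level in the shSIK2 library, at 18.2 FPKM against 12.6 FPKM in the scrambled library, all of it from HOXB7. Group 8 had the largest sum in the scrambled library, at 10.4 FPKM in shSIK2 cells against 15.7 FPKM in scrambled cells. Over the members of a cluster, level and paralog number had a Spearman rho of -0.15 in HOXB (n = 10 genes) and 0.25 in HOXC (n = 9 genes) in the shSIK2 library, against -0.28 and 0.18 in the scrambled library. These values describe genes of 1 library that share a locus, and that of HOXC changed sign, to -0.66 in shSIK2 cells and -0.77 in scrambled cells, over the 6 members that share few exonic bases with other genes.

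All 8 measured HOXB genes were higher in the shSIK2 library, HOXB6 by the most. Measured here means at least 1 FPKM in the higher library. The log2 ratio is that of FPKM plus 0.1, shSIK2 over scrambled, a scale that understates the ratio of low genes. It ran from 0.28 for HOXB2 to 1.496 for HOXB6 in this cluster, with a median of 0.92, where the median of all 12866 measured genes was -0.11. Of all measured genes 43.6% had a ratio above 0. At least 2-fold higher were 4 of the 8 HOXB genes, HOXB3, HOXB6, HOXB8 and HOXB13, the last at 1 FPKM or more in the shSIK2 library alone. Of all measured genes 11.0% were. None of the 8 was 2-fold lower, where 8.28% of all measured genes were. Reads summed over all 10 members were 3878 in the shSIK2 library and 2214 in the scrambled library, a 1.75-fold difference (1.66 to 1.85).

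At the 3′ end of HOXB the measured genes ran from 1.22-fold higher for HOXB2 to 2.07-fold higher for HOXB3. HOXB1, a hindbrain patterning gene, had 0 reads in both libraries. HOXB2, its neighbour and another hindbrain gene, had 15.5 FPKM in shSIK2 cells and 12.7 FPKM in scrambled cells, 1.22-fold higher (1.08 to 1.37). It was the second highest HOX gene in both libraries and had the smallest ratio of its cluster. HOXB3 (ENSG00000120093, GRCh38 chr17:48548870-48604912) had 8.86 FPKM in shSIK2 cells and 4.29 FPKM in scrambled cells, from 1134 and 549 reads, 2.07-fold higher (1.86 to 2.29). HOXB4, known for expanding blood stem cells, had 9.88 FPKM in shSIK2 cells against 5.77 FPKM in scrambled cells, 1.71-fold higher (1.504 to 1.95). The measured genes here were all above their scrambled level, by amounts that differed between neighbours.

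The central HOXB genes held the largest ratio. HOXB5, which acts in gut innervation and lung development, had 9.08 FPKM in shSIK2 cells and 5.08 FPKM in scrambled cells, 1.79-fold higher (1.48 to 2.16). HOXB6 (ENSG00000108511, chr17:48595751-48604992) had 10.8 FPKM in shSIK2 cells and 3.76 FPKM in scrambled cells, from 482 and 168 reads. At 2.87-fold higher (2.40 to 3.44) it ranked 4 among HOX genes by FPKM in the shSIK2 library and 9 in the scrambled library. HOXB7, a homeodomain factor often studied as a driver of breast cancer growth, was the highest HOX gene of the shSIK2 library at 18.2 FPKM, against 12.6 FPKM in the scrambled library. Its fold of 1.45 (1.25 to 1.67) was among the smaller ones of the cluster.

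At the 5′ end, levels were lower and counts smaller. HOXB8 (ENSG00000120068, chr17:48611377-48614939), whose known uses include holding myeloid progenitors in a proliferating state, had 2.84 FPKM in shSIK2 cells and 1.19 FPKM in scrambled cells, from 100 and 42 reads, 2.38-fold higher (1.64 to 3.50). HOXB9, the next gene, went the other way at very low counts, with 2 reads in shSIK2 cells and 16 in scrambled cells. HOXB13, a posterior gene of prostate and hindgut that lies apart from the rest of the cluster, had 1.80 FPKM in shSIK2 cells and 0.84 FPKM in scrambled cells, from 107 and 50 reads, 2.14-fold higher (1.52 to 3.06). HOXB8 and HOXB13 share no annotated exonic base with another gene. HOXB8 does lie within the annotated span of HOXB7 on the same strand, so it is unknown whether all its reads are its own.

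**Figure D2:**
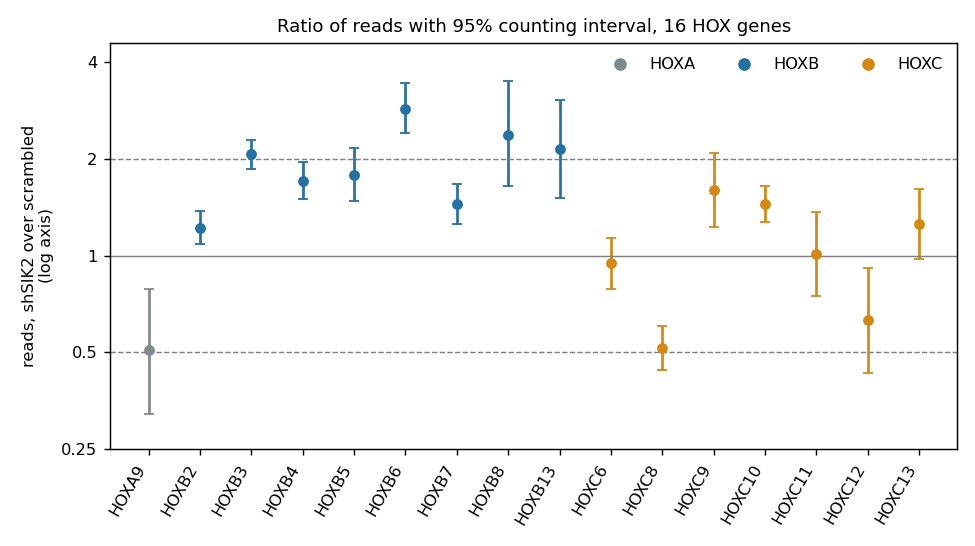
Ratio of reads, shSIK2 over scrambled (vertical axis, log scale), for the 16 measured HOX genes (horizontal axis); points are 1 library over 1 library, bars are exact 95% counting intervals, the solid line is 1 and dashed lines are 2-fold. All 8 HOXB points lie above 1, from 1.22 to 2.87, and the HOXC points lie on both sides, with HOXC8 the lowest of that cluster.

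Some HOXB exons overlap, which limits how far single genes can be told apart. HOXB6 shares 32.9% of its exonic bases with HOXB3 or the antisense gene HOXB-AS3, HOXB4 shares 17.1% and HOXB3 13.2%. The strandedness of the libraries is unknown here, so reads of sense and antisense transcripts cannot be separated there. HOXB4 and HOXB5 lie within the annotated span of HOXB3 on the same strand, so it is unknown whether all their reads are their own. Without the members that share over 10% of their exonic bases, the summed log2 ratio of HOXB was 0.53 in place of 0.81. The log2 ratio also followed GC content over all measured genes (Spearman rho 0.28 across genes, which are not replicates), and the measured HOXB transcripts ranged from 51.4% to 58.9% GC, above the median of 48.5%. The part of GC content in the HOXB ratios was not tested beyond the removal of that trend. After the trend with GC content and exon length was removed, all 8 HOXB genes stayed above 0, from 0.14 to 1.37 with a median of 0.84, where 49.9% of all measured genes were above 0. HOXB6 alone was then 2-fold higher and no HOX gene 2-fold lower, where 10.7% and 6.74% of all measured genes were, and HOXB8 stood at 0.98. Scaled to equal total reads, which adds 0.14, 4 HOXB genes were 2-fold higher and none lower, where 13.4% and 6.04% of all measured genes were. All 8 were again above 0, where 51.7% of all measured genes were.

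**Figure D3:**
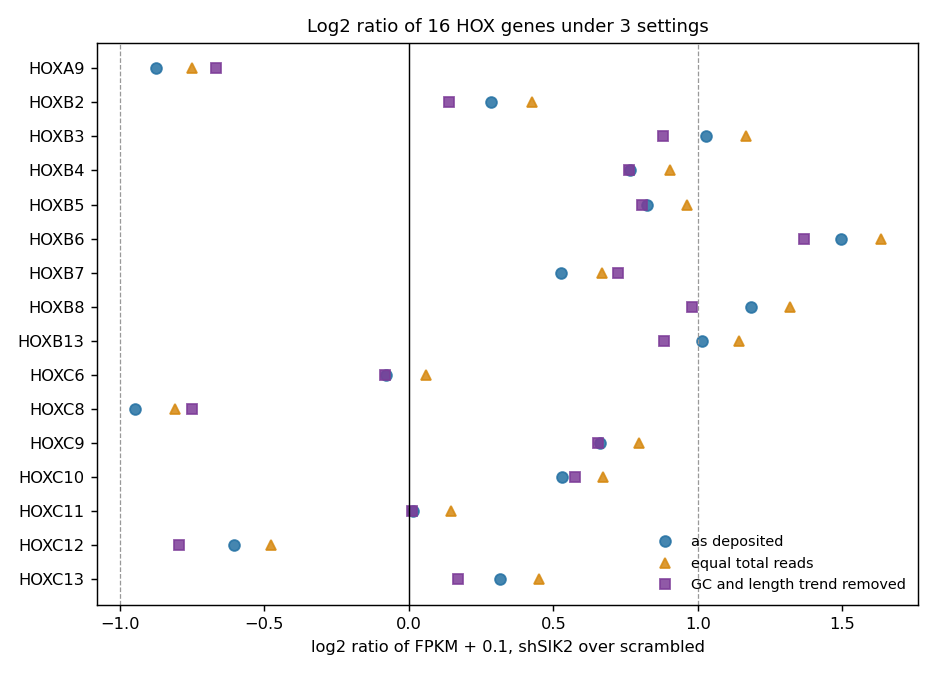
Log2 ratio of FPKM plus 0.1, shSIK2 over scrambled (horizontal axis), for the 16 measured HOX genes (rows) as deposited, at equal total reads, and after the trend with GC content and exon length was removed; dashed lines mark 2-fold. The HOXB genes stay right of 0 in each setting, from 0.14 for HOXB2 to 1.63 for HOXB6, while HOXB3, HOXB8 and HOXB13 lie close to the 2-fold line.

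HOXC had nearly equal sums in both libraries as deposited, with single genes higher and lower. Its summed reads were 1527 in the shSIK2 library and 1530 in the scrambled library, 1.002-fold lower (0.93 to 1.08). Of 7 measured genes, 4 had a log2 ratio above 0 and 3 below it, with a median of 0.01. Among all measured genes 43.6% were above 0 and 55.9% below it. None of the 7 was past 2-fold, where 19.3% of all measured genes were, either way. At equal totals the log2 ratio of the summed HOXC reads was 0.14. Above 0 were then 5 of the 7 genes, where 51.7% of all measured genes were. HOXC8 (ENSG00000037965, chr12:54009106-54012362), a thoracic patterning gene, had the lowest log2 ratio of the HOXC cluster as deposited, at -0.95, while HOXC12 was lower, at -0.79 against -0.75, with the trend in GC and length taken out. It had 7.46 FPKM in shSIK2 cells and 14.5 FPKM in scrambled cells, from 242 and 470 reads, 1.94-fold lower (1.66 to 2.28). HOXC8 was the highest HOX gene of the scrambled library and ranked 8 in the shSIK2 library. It shares no annotated exonic base with another gene. It does lie within the annotated span of HOXC6 on the same strand, so it is unknown whether all its reads are its own. HOXC9 lies within that span too.

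HOXC9 and HOXC10, on the 5′ side of HOXC8, were higher in shSIK2 cells. HOXC9 had 5.38 FPKM in shSIK2 cells and 3.37 FPKM in scrambled cells, 1.60-fold higher (1.23 to 2.08). HOXC10, a hindlimb patterning gene, had 14.4 FPKM in shSIK2 cells against 9.95 FPKM in scrambled cells, 1.45-fold higher (1.27 to 1.65), and was the highest HOXC gene of the shSIK2 library. HOXC6, which shares exons with HOXC4 and HOXC9, had 4.0 FPKM in shSIK2 cells and 4.23 FPKM in scrambled cells. HOXC6 was thus 1.06-fold lower in reads (0.88 to 1.27), an interval that includes 1. The sign of its log2 ratio depends on the scaling, at -0.08 as deposited and 0.06 at equal totals.

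The 5′ HOXC genes had lower levels. HOXC11 had 1.66 FPKM in shSIK2 cells and 1.64 FPKM in scrambled cells, a 1.01-fold difference (0.75 to 1.36). HOXC12 had 0.84 FPKM in shSIK2 cells and 1.33 FPKM in scrambled cells, from 48 and 76 reads, 1.58-fold lower (1.09 to 2.32). HOXC13, a hair and nail gene, had 3.58 FPKM in shSIK2 cells against 2.86 FPKM in scrambled cells, 1.25-fold higher (0.98 to 1.61). HOXC4 had 19 reads in shSIK2 cells and 16 in scrambled cells, and HOXC5 had 1 in shSIK2 cells and 5 in scrambled cells. HOXC12 and HOXC13, which lie side by side, had ratios of opposite sign. However, HOXC12 reached 1 FPKM in the scrambled library alone, so it had to be lower, and the interval of HOXC13 includes 1.

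HOXA and HOXD were near the limit of detection. HOXA9, the leukaemia-linked member of its cluster, was the 1 HOXA gene to reach 1 FPKM, with 0.62 FPKM in shSIK2 cells and 1.21 FPKM in scrambled cells, from 32 and 63 reads, 1.97-fold lower (1.27 to 3.11). Its exons overlap HOXA10-AS, AC004080.3 and MIR196B over 27.04% of their length. HOXA10 had 6 reads in shSIK2 cells and 16 in scrambled cells, and HOXA11 had 5 in shSIK2 cells and 7 in scrambled cells. HOXA2, HOXA3, HOXA5 and HOXA13 had at most 3 reads in either library, and HOXA4, HOXA6 and HOXA7 had 0 in both. In HOXD, HOXD8 had 3 reads in shSIK2 cells and 1 in scrambled cells, HOXD9 had 0 in shSIK2 cells and 2 in scrambled cells, and the other 7 genes had 0 in both. Genes with 0 reads in both libraries were not detected at this depth, as a count of 0 allows up to 3 reads. No ratio is given for HOXA and HOXD genes under 1 FPKM.

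Paralogs of the same number differed in their ratios. In group 8 HOXB8 was 2.38-fold higher while HOXC8 was 1.94-fold lower, and the reads summed over the whole group were 345 in shSIK2 cells and 513 in scrambled cells. In group 6 HOXB6 was 2.87-fold higher beside a HOXC6 that was 1.06-fold lower. In group 9 HOXC9 was higher, HOXA9 was lower and HOXB9 had few reads, with sums over the whole group of 189 reads in shSIK2 cells and 178 in scrambled cells. In group 13 HOXB13 and HOXC13 were both higher, with sums over the whole group of 259 reads in shSIK2 cells and 172 in scrambled cells. Group 8 thus held measured paralogs on both sides of 1. In group 9 HOXA9, the lower one, reached 1 FPKM in the scrambled library alone, so it had to be lower. HOXB13 reached it in the shSIK2 library alone, so it had to be higher. The interval of HOXC6 includes 1.

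Promoter windows in the reference table from RefSeq (GRCh38.p14) were found for 20 of the 39 genes, of which HOXA9 alone was measured. For 2 of them the 250 bases before the start are shown, because they represent the silent 3′ end of an active cluster and the 1 HOXA gene with reads above the minimum. Capitals mark TGATNNAT, the letters of a joint HOX and PBX binding motif, and CCAAT, the letters bound by NF-Y, each searched on both strands.
HOXB1, chr17:48531012-48531261, minus strand: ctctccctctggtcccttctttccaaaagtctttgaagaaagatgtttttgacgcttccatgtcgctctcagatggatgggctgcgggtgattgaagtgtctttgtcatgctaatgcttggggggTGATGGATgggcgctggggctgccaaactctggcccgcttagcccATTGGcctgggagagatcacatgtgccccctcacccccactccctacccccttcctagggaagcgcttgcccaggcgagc
HOXA9, chr7:27165538-27165787, minus strand: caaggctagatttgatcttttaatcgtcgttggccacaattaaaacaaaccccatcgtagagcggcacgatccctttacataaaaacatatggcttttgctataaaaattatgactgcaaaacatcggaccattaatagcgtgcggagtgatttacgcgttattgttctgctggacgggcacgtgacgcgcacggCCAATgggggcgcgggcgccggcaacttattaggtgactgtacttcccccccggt
In the mouse, Hoxb1 is known to sustain its own expression through HOX and PBX sites upstream. The human window held 1 match to TGATNNAT, and the gene had 0 reads in both libraries. That motif was in 3 of 27 HOX windows, or 11.1%, and in 6.47% of all 35116 windows. CCAAT was in 18 of 27 HOX windows, or 66.7%, and in 32.0% of all windows. A match is a description of these letters, several windows belong to 1 gene, and HOXC4 and HOXC5 share the same window.

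Of the other transcripts inside the clusters, 9 were measured, and 7 of these are annotated as antisense. In HOXB 2 of 3 measured ones were at least 2-fold higher, where 11.0% of all measured genes were. HOXB-AS3, which overlaps HOXB6, HOXB3 and HOXB5, had 134 reads in shSIK2 cells and 43 in scrambled cells, 3.12-fold higher (2.20 to 4.50). HOXB-AS2 had 64 reads in shSIK2 cells and 26 in scrambled cells, 2.46-fold higher (1.54 to 4.05). HOXB-AS1, which overlaps HOXB2 and HOXB3, had 30 reads in shSIK2 cells and 46 in scrambled cells, 1.53-fold lower (0.95 to 2.52 lower). None of the 4 measured genes that flank the HOXB cluster was past 2-fold, where 19.3% of all measured genes were, either way. CALCOCO2, an autophagy receptor on the 5′ side, was 1.81-fold lower (1.67 to 1.97), and SNX11, a sorting nexin on the 3′ side, 1.60-fold lower (1.35 to 1.89). ATP5MC1 and CBX1 were 1.13-fold (0.99 to 1.28) and 1.16-fold (1.06 to 1.28) higher. The nearest flanking genes, TTLL6 and SKAP1, had 0 reads in both libraries. The flanking genes thus lay on both sides of 0, while all measured HOXB genes lay above it.

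**Figure D4:**
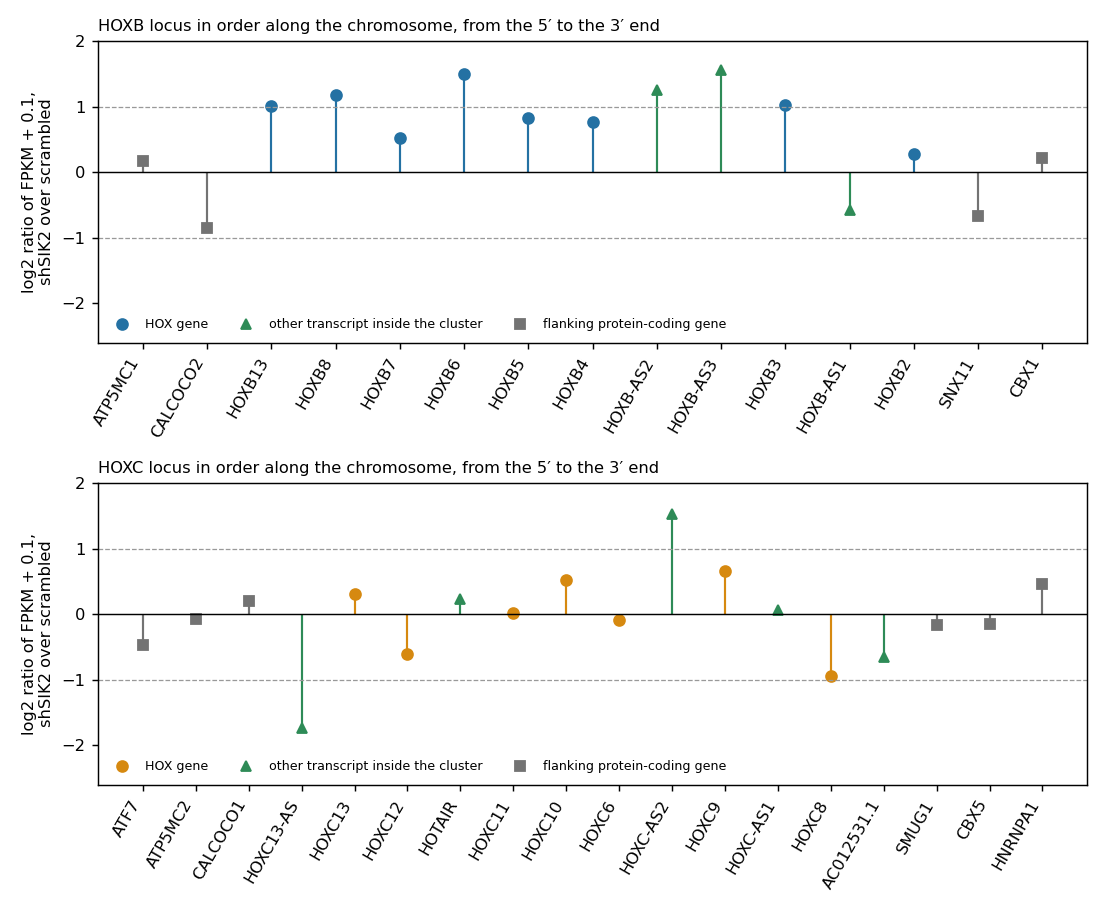
Log2 ratio of FPKM plus 0.1, shSIK2 over scrambled (vertical axis), of measured genes in order along the chromosome (horizontal axis, not to scale) for HOXB and HOXC; circles are HOX genes, triangles other transcripts inside the cluster, squares flanking protein-coding genes, and dashed lines mark 2-fold. In HOXB all 8 circles are above 0 while the flanking squares lie between -0.84 and 0.22; in HOXC circles and triangles lie on both sides of 0.

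The HOXC locus held transcripts far to both sides. HOXC13-AS, antisense at the start of HOXC13, had 19 reads in shSIK2 cells and 69 in scrambled cells, 3.63-fold lower (2.16 to 6.39), whereas HOXC13 was 1.25-fold higher. HOXC-AS2, which overlaps HOXC9 and HOXC6, had 1.10 FPKM in shSIK2 cells and 0.32 FPKM in scrambled cells, from 42 and 12 reads, 3.50-fold higher (1.81 to 7.30). HOXC-AS2 and HOXC13-AS reached 1 FPKM in 1 library alone, as did HOTAIRM1 in HOXA, so they had to differ. HOTAIR, an antisense RNA known to bind Polycomb proteins and studied in breast cancer metastasis, had 75 reads in shSIK2 cells and 63 in scrambled cells, 1.19-fold higher (0.84 to 1.69). HOXC-AS1 had 23 reads in shSIK2 cells and 22 in scrambled cells. AC012531.1, a long non-coding RNA in the 3′ part of the cluster, had 55 reads in shSIK2 cells and 89 in scrambled cells, 1.62-fold lower (1.14 to 2.31). In HOXA, the antisense RNA HOTAIRM1 had 16 reads in shSIK2 cells and 28 in scrambled cells, 1.75-fold lower (0.91 to 3.46 lower), and no other transcript inside HOXA or HOXD was measured.

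The clusters also hold microRNA genes, whose mature forms these libraries do not measure. Their sequences are shown because the clusters encode them and HOX transcripts carry their seed matches. Capitals mark the seed, bases 2 to 8, in RefSeq entries of GRCh38.p14.
miR-196a-5p, encoded in HOXB and HOXC: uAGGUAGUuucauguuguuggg
miR-196b-5p, encoded in HOXA: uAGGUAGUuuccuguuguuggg
miR-10a-5p, encoded in HOXB: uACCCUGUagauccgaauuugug
The 2 miR-196 forms share the seed AGGUAGU. Its match, ACTACCT, occurred in the annotated 3′ UTR of 9 of 39 HOX genes, and in 7.90% of 19146 genes. Among the measured HOX genes 5 of 16 had it. Only these exact letters were searched, so sites that pair G with U in the seed are not covered. The windows opposite miR-196a-5p in HOXC8, which was lower, and in HOXB6 and HOXB7, which were higher, are given with the seed match in capitals.
HOXC8, first site: cactcacaactctaACTACCTg
HOXC8, second site: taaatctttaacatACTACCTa
HOXB6: tggaaggagcacatACTACCTa
HOXB7: aacactgaaaaaatACTACCTa
Counted without gaps, 12 of 22 bases of each HOXC8 window paired with miR-196a-5p, against 12 in HOXB6 and 13 in HOXB7. The other measured genes with the match were HOXA9, lower, with 14 and 12 paired bases at its 2 sites, and HOXB13, higher, with 8. HOX genes with the seed match thus included higher and lower ones. The match of miR-10a-5p, ACAGGGT, was in HOXB3 among the measured HOX genes, and in 13.7% of all genes. The hairpin gene of miR-196a-2 had 0 reads in shSIK2 cells and 1 in scrambled cells, and those of miR-196a-1, miR-196b and miR-10a had 0 in both.

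HOX proteins bind DNA with partner homeodomain proteins, and 6 of 9 such cofactor genes were measured. MEIS3 was the 1 past 2-fold, with 5.27 FPKM in shSIK2 cells and 2.41 FPKM in scrambled cells, 2.18-fold higher (1.85 to 2.58). PBX3 had 18.2 FPKM in shSIK2 cells and 10.1 FPKM in scrambled cells, 1.81-fold higher (1.65 to 1.97). PBX2, at 16.7 FPKM in shSIK2 cells and 17.3 FPKM in scrambled cells, was 1.03-fold lower (0.96 to 1.12). PBX4 was 1.61-fold higher (0.98 to 2.68), MEIS2 1.16-fold lower (0.95 to 1.42) and PKNOX1 1.01-fold higher (0.85 to 1.19). PBX4 reached 1 FPKM in the shSIK2 library alone. MEIS1 stayed under 1 FPKM, with 31 reads in shSIK2 cells against 6 in scrambled cells. The median log2 ratio of the 6 was 0.31, beside -0.11 over all measured genes, and it was 0.35 with the trend in GC and length taken out. With that trend removed, MEIS3 stood at 0.74, and PBX3 was the 1 past 2-fold, at 1.12. Among all measured genes 10.7% were then at least 2-fold higher and 6.74% lower. None of the 8 ParaHox and EVX genes, the closest relatives of the HOX clusters, was measured.

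Polycomb genes, which encode the complexes that keep HOX genes silent, were divided. Of 11 PRC2 genes, all measured, EZH2 was at least 2-fold lower and none was higher, where 8.28% and 11.0% of all measured genes were. Their median log2 ratio was 0.13. EZH2, the main catalytic subunit, had 12.2 FPKM in shSIK2 cells and 24.7 FPKM in scrambled cells, 2.03-fold lower (1.87 to 2.19). SUZ12, a core subunit, was 1.58-fold lower (1.501 to 1.66), with 22.6 FPKM in shSIK2 cells and 35.6 FPKM in scrambled cells. EED, the subunit that reads the methyl mark, was 1.74-fold higher (1.41 to 2.15), with 2.07 FPKM in shSIK2 cells and 1.19 FPKM in scrambled cells. At equal totals the log2 ratio of EZH2 was -0.87, short of 2-fold. With the trend in GC and length taken out, no PRC2 gene was 2-fold lower, and EED was 2-fold higher at 1.08. Among all measured genes 6.74% were then 2-fold lower and 10.7% higher. Core subunits of 1 complex thus had ratios of opposite sign.

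Of 19 PRC1 genes, all measured, 1 was 2-fold higher and 1 lower, where 11.0% and 8.28% of all measured genes were. A log2 ratio below 0 was found for 14 of them, where 55.9% of all measured genes had one, with a median of -0.31. BMI1, a ring-finger subunit, had 10.7 FPKM in shSIK2 cells and 22.8 FPKM in scrambled cells, 2.14-fold lower (1.97 to 2.33), and SCMH1 was 1.96-fold lower (1.80 to 2.13). CBX8, a chromodomain subunit, had 1.46 FPKM in shSIK2 cells and 0.62 FPKM in scrambled cells, 2.36-fold higher (1.65 to 3.44). It reached 1 FPKM in the shSIK2 library alone, so it had to differ. At equal totals none of the PRC1 genes was 2-fold lower, and 2 were higher, where 6.04% and 13.4% of all measured genes were. Their median was then -0.17. With the trend in GC and length taken out, none was 2-fold lower and PCGF5 alone was higher, at 1.22. Among all measured genes 6.74% and 10.7% were. CBX8 then stood at 0.97 and BMI1 at -0.82.

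The activating side was mostly lower. Of 19 MLL and trithorax genes, all measured, none was past 2-fold, where 19.3% of all measured genes were, either way. A ratio below 0 was found for 16, where 55.9% of all measured genes had one, and the median log2 ratio was -0.37. At equal totals that median was -0.23. ASH1L, a histone methyltransferase, was 1.99-fold lower (1.88 to 2.10), RBBP5, a subunit shared by MLL complexes, 1.88-fold lower (1.71 to 2.08), and PSIP1, which tethers MLL to chromatin, 1.74-fold lower (1.68 to 1.80). KMT2A, the MLL1 enzyme that maintains HOX expression in blood cells, was at 3.13 FPKM in shSIK2 cells and 3.42 FPKM in scrambled cells, 1.09-fold lower (1.02 to 1.17), with a log2 ratio of 0.02 at equal totals. Genes for CTCF and cohesin, which fold the HOX loci into domains, had 8 of 8 members below 0 as deposited. Among all measured genes 55.9% were below 0. The median of the 8 was -0.35, and none was past 2-fold, where 19.3% of all measured genes were, either way. CTCF had 5.35 FPKM in shSIK2 cells and 7.55 FPKM in scrambled cells, 1.41-fold lower (1.30 to 1.53). The cohesin release factor WAPL and the subunits STAG1 and STAG2 were 1.94-fold, 1.76-fold and 1.58-fold lower. RAD21 turned to a log2 ratio of 0.10 at equal totals, against -0.04 as deposited. With the trend in GC and length taken out, RAD21, SMC3, NIPBL and SMC1A were above 0, at 0.29, 0.17, 0.10 and 0.01, and the median was -0.10.

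**Figure D5:**
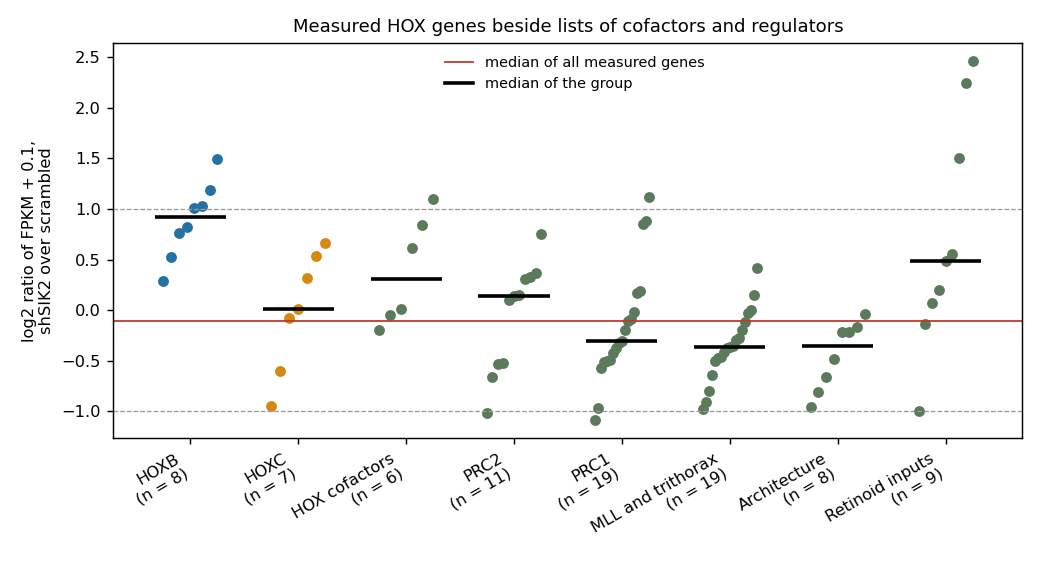
Log2 ratio of FPKM plus 0.1, shSIK2 over scrambled (vertical axis), of the measured genes of HOXB, HOXC and 6 lists (horizontal axis, number of measured genes in brackets); each point is a gene, black bars are group medians, the red line is the median of all measured genes and dashed lines mark 2-fold. HOXB has the highest median, 0.92, and the MLL and trithorax list the lowest, -0.37.

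Retinoid genes were the remaining list, since retinoic acid is the classical inducer of 3′ HOX genes. Of 17 genes 9 were measured, of which 3 were past 2-fold upwards and 1 downwards, where 11.0% and 8.28% of all measured genes were. Their median log2 ratio was 0.49, and 0.16 with the trend in GC and length taken out. STRA6, the receptor for retinol uptake, had 15.3 FPKM in shSIK2 cells and 2.70 FPKM in scrambled cells, 5.69-fold higher (5.08 to 6.38). RARB, a retinoic acid receptor that is itself a retinoid target, had 1.64 FPKM in shSIK2 cells and 0.27 FPKM in scrambled cells, from 104 and 17 reads, 6.12-fold higher (3.64 to 10.9). It too reached 1 FPKM in the shSIK2 library alone. DHRS3, a retinaldehyde reductase and retinoid target, had 46.4 FPKM in shSIK2 cells and 16.3 FPKM in scrambled cells, 2.85-fold higher (2.63 to 3.08). ALDH1A3, an enzyme that makes retinoic acid, was 2.02-fold lower (1.82 to 2.25), with a log2 ratio of -0.86 at equal totals. CYP26A1, the retinoid-induced degrading enzyme, had 5 reads in shSIK2 cells and 0 in scrambled cells. CYP26C1 had 14 in shSIK2 cells and 5 in scrambled cells. CYP26B1 went the other way, with 0 in shSIK2 cells and 6 in scrambled cells. All of these CYP26 genes were under 1 FPKM. Whether retinoid signalling had a part in the HOXB levels was not tested.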

How the data were processed

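RNA was taken with Trizol and sequenced by a standard Illumina method, per the labels' protocols. The submitters' processing notes name HISAT2 2.0.5 and hg18. The counter, its annotation and the FPKM formula were not stated. The 2 deposited tables hold FPKM for 58735 Ensembl genes, per the file headers. All identifiers matched GENCODE release 29 on GRCh38, the source of names, exon lengths and coordinates. It is unknown whether reads were aligned to that build.

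FPKM times exon length gave whole multiples of 1 step, 58.3 in both tables, for 100% of the 22790 (shSIK2) and 21622 (scrambled) values above 0 (relative tolerance 0.001). The multiples were taken as reads. Because the step is shared, FPKM values are not scaled to each library's total. Genes were measured at 1 FPKM or more in the higher library, and called at 2-fold on log2 ratios of FPKM plus 0.1. Folds are ratios of reads with exact (Clopper-Pearson, conditional on the sum) 95% intervals, for counting error only, as PCR copies could not be told from molecules. They are not scaled to library totals, which would multiply each ratio of shSIK2 over scrambled by 1.10. Whether an interval includes 1 can therefore depend on the scaling. No test was run, each group being 1 library. GC content is the length-weighted mean over a gene's transcripts; its trend and that of exon length were taken out with binned medians (20 bins for each, applied in alternation). TMM factors were computed in Python.

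HOX genes and lists were chosen with earlier results of these data known. Named were all HOX members; measured transcripts inside the clusters and flanking genes; all cofactors measured and up to 3 genes of each other list by absolute log2 ratio; and SIK2. KMT2A, CTCF, RAD21, ALDH1A3, SMC3, SMC1A, NIPBL, PCGF5, CYP26A1, CYP26B1, CYP26C1 and MEIS1 were added after their values were seen. 1 HOX gene and 1 cofactor are counted in the totals but not reported here. Recovery of reads, calls, intervals, TMM and trend removal were tested on simulated data. Scripts ran in Python 3.11.15 with scipy 1.17.1, pandas 2.3.3 and numpy 2.4.6, and plots were drawn with matplotlib 3.10.9.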

Additional observations from a re-analysis of the deposited data

How the results depend on the processing

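With 1 library per group no library could be left out, and no paired analysis was possible because each group has a single replicate. The number of HOX genes at least 2-fold higher, 4 as reported, was 1 with a pseudocount of 1, 1 with the GC and length trend removed, 2 with a minimum of 5 FPKM, 2 without members that share over 10% of their exonic bases, 7 at a 1.5-fold threshold and 0 at a 3-fold threshold. The number at least 2-fold lower, 0 as reported, was 1 (HOXB9) with no minimum and 3 at a 1.5-fold threshold. The median log2 ratio of measured HOX genes, 0.53 as reported, was 0.67 at equal totals, 0.64 when centred on all measured genes, 0.66 with a minimum of 5 FPKM, 0.30 with no minimum and 0.61 with the trend removed. The log2 ratio of SIK2, -1.11 as reported, was -0.97 at equal totals, -0.95 with a pseudocount of 1 and -0.92 with the trend removed. Each of these was short of 2-fold.

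The log2 ratio of summed HOXB reads, 0.81 as reported, was 0.95 at equal totals, 0.53 without members that share exons and 0.72 without HOXB3, which has the most reads. That of HOXC, -0.003 as reported, was 0.14 at equal totals and -0.25 without HOXC10. That of HOXA, -0.75 as reported, was 1.0 without members that share exons, on few reads. The rank correlation of HOXC level with paralog number in the shSIK2 library, 0.25 as reported, was -0.66 without members that share exons. For these differences the cause was not tested. Depth limits HOXD, HOXA other than HOXA9, HOXB9, HOXC4 and HOXC5, whose reads leave any ratio with a wide interval.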
